A study of Homo sapiens with 8 samples.

Results

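The CDK inhibitor genes of HuCCT1 cells were taken as the 8 genes CDKN1A, CDKN1B, CDKN1C, CDKN2A, CDKN2B, CDKN2C, CDKN2D and CDKN3, found by gene name among the 34809 gene names of an Agilent expression array. HuCCT1 is an established human intrahepatic cholangiocarcinoma line, that is, a cancer of the bile ducts within the liver. All 8 genes were well above background on all 8 arrays and were among the 20464 genes tested. RNA was measured from cells that carried 1 of 4 vectors, with 2 arrays for each vector. The vectors shControl and shNontarget are labelled as control, and shBEX2-1 and shBEX2-2 are labelled as BEX2 knock down, so that all 4 groups carry a vector and no array holds RNA of the parent line. The study describes retroviral vectors for the BEX2 hairpins and control cells with a hairpin against luciferase, and the sources used here do not say which of the control vectors that is. The hairpin target sequences that the methods list are complementary to each other over all but the last base. If that listing is right, both BEX2 hairpins lie on the same stretch of BEX2 and are not a test on separate sites, but nothing else in the sources used here bears on the listing. No source states that a vector's 2 arrays hold separate cultures, so the p-values measure the spread between these arrays, which may be technical.

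Cyclin-dependent kinases (CDKs) drive the cell cycle once they are bound by a cyclin, and CDK inhibitors hold them back. The Cip/Kip proteins p21 (CDKN1A), p27 (CDKN1B) and p57 (CDKN1C) bind cyclin-CDK complexes of several kinds. The INK4 proteins p16 (CDKN2A), p15 (CDKN2B), p18 (CDKN2C) and p19 (CDKN2D) bind CDK4 and CDK6 and keep cyclin D away from them, which leaves the retinoblastoma protein able to restrain E2F transcription factors. CDKN3 stands apart, since it encodes a phosphatase that removes an activating phosphate from CDK2. p57 and p27 are known for their part in keeping stem cells quiescent, p16 and p15 are often lost in bile duct cancers, and transcripts of CDKN2D and CDKN3 are known to rise in dividing cells. Much of the control of these proteins, above all of p27, lies in their degradation, which RNA does not show.

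Each array had 58717 spots for transcripts, of which 59.8% to 64.6% rose well above background and 0 were saturated. The normalised level of a gene is the log2 intensity of its brightest probe minus the 75th percentile of its array, so that a gene at 0 has the intensity of that percentile. The shNontarget arrays stood apart from each other. A gap above 1 log2 unit separated them for 34.9% of the genes tested, against 1.76% for shControl, 1.56% for shBEX2-1 and 0.562% for shBEX2-2. The control arrays lay in row 1 of the slide and the BEX2-knockdown arrays in row 2, so that row and group cannot be told apart. All 6 biliary and epithelial markers (KRT7, KRT19, KRT8, KRT18, EPCAM and SOX9) were well above background on all 8 arrays, and KRT8 was the 1 that changed (1.02 higher in BEX2-knockdown cells, adjusted p = 0.0165). Markers of other cells were mixed. Of 11 markers of fibroblasts, leukocytes, endothelium and hepatocytes, COL1A1, LUM, VWF and CD68 were well above background on 8 arrays, PTPRC on 7, APOA1 on 6, CD3E on 3 and DCN on 2, whereas COL3A1, PECAM1 and ALB were on 0. The 6 that were above background on at least 4 arrays were tested. The 1 called was CD68, which is not restricted to leukocytes and was higher in BEX2-knockdown cells by 0.99 (adjusted p = 0.0473). The part of such cells in the results was not tested. RNA was taken from whole cultures, so that fewer cells of a kind and less RNA per cell cannot be told apart.

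BEX2, the target of the hairpins, had normalised levels of -3.36 and -3.91 in shControl, -2.70 and -3.77 in shNontarget, -5.21 and -5.54 in shBEX2-1, and -4.92 and -4.60 in shBEX2-2. All 4 BEX2-knockdown arrays lay below all 4 control arrays. The log2 difference between the groups was -1.63 (SE 0.32, limma, adjusted p = 0.0116). The call was lost with normexp background correction (-0.45, adjusted p = 0.0801) and with shNontarget as the only control (-1.83, adjusted p = 0.0786). By hairpin, the difference from both control vectors was -1.94 in shBEX2-1 (adjusted p = 0.0336) and -1.32 in shBEX2-2, which did not pass (adjusted p = 0.0813). Its probe was well above background on the shBEX2-2 arrays and on neither shBEX2-1 array, where the level is therefore only an upper limit.

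The arrays report each inhibitor through probes of 60 bases. Some that lie in coding sequence are shown here, because 3 of the genes have a second probe and the probes of CDKN1B differed in sign. Coordinates are those of the array design on hg19, and letters run 5′ to 3′ along the transcript. The CDKN1A probe lies at chr6:36652178-36652237 on the plus strand and was the only one for that gene. The CDKN1B probe lies at chr12:12871119-12871178 on the plus strand and was dimmer than the other CDKN1B probe at chr12:12874940-12874999, near the end of the gene. The CDKN2A probe shown lies at chr9:21970901-21970960 on the minus strand, in the exon that the transcripts of p16 and of ARF share, so it does not separate them. The levels of CDKN2A rest on a brighter probe at chr9:21968039-21968098, which was not taken to separate them either. Both CDKN3 probes lie in coding sequence. The brighter one, on which the levels rest, has no position in the design, and the dimmer one lies at chr14:54866634-54866693 on the plus strand.
CDKN1A: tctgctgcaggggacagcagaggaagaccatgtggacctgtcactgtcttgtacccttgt
CDKN1B: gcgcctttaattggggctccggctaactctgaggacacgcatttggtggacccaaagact
CDKN2A: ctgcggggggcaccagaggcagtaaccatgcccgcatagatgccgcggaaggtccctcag
CDKN3, brighter: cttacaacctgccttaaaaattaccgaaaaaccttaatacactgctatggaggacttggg
CDKN3, dimmer: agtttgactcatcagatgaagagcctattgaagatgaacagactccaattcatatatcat

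The CDK inhibitor genes moved in both directions. In BEX2-knockdown cells CDKN2D, CDKN3 and CDKN2C were higher by 1.61, 1.37 and 0.98 on the log2 scale, and CDKN1C and CDKN1A were lower by 1.33 and 0.74 (2.51-fold and 1.67-fold). CDKN1B and CDKN2A did not pass the test, nor did CDKN2B. The test called 5 of the 8 genes at an adjusted p under 0.05, compared with 12.9% of all genes tested. Of these, 3 were higher, a direction in which 6.68% of all genes were called, and 2 were lower, against 6.26%. For CDKN1A, CDKN1C, CDKN2C and CDKN2D the BEX2-knockdown and control arrays did not overlap, as was found for 22.1% of all genes. The median log2 difference of the 8 genes was -0.12, and that of all genes 0.03, whereas the median size without regard to sign was 0.94 for the 8 genes and 0.30 for all.

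**Figure D1:**
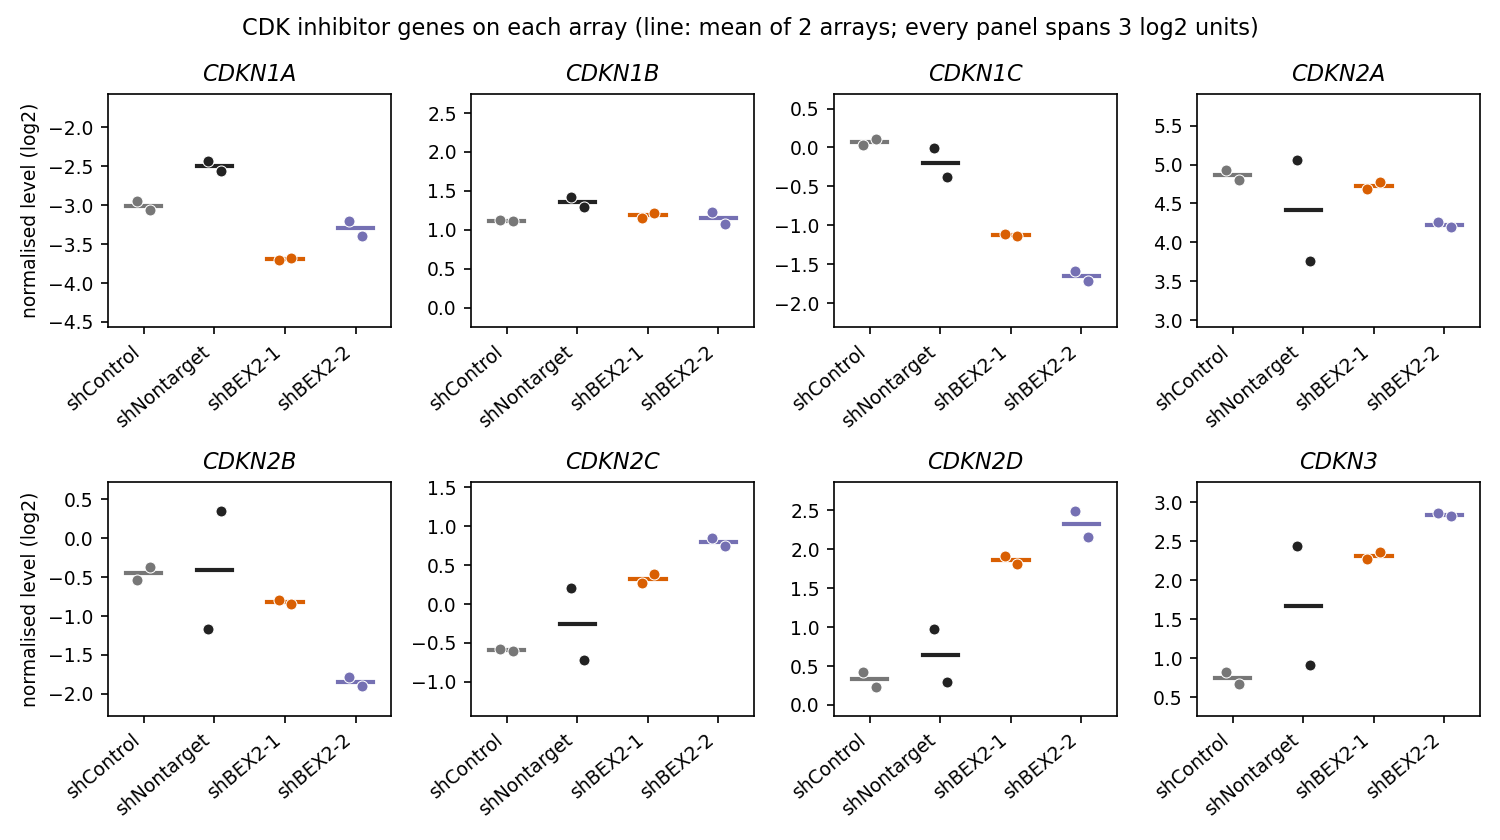
Normalised level (log2 intensity minus the array's 75th percentile) of each CDK inhibitor gene on the 8 arrays, by vector; points are arrays, lines are means of 2 arrays, and every panel spans 3 log2 units. CDKN1C and CDKN1A are lower and CDKN2C and CDKN2D higher on all 4 BEX2-knockdown arrays, and the shNontarget arrays lie far apart for CDKN2A, CDKN2B and CDKN3.

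Among the Cip/Kip genes, CDKN1C changed the most. Its levels were 0.04 and 0.10 in shControl, -0.01 and -0.38 in shNontarget, -1.11 and -1.14 in shBEX2-1, and -1.59 and -1.72 in shBEX2-2. The groups did not overlap, and the lowest control array was 0.73 above the highest BEX2-knockdown array. The log2 difference was -1.33 (SE 0.18, 95% interval -1.74 to -0.91, limma, adjusted p = 0.00298). The call was kept under 21 of 22 alternative settings and was lost with shNontarget as the only control (-1.20, adjusted p = 0.0658). With shControl as the only control, which also leaves 2 arrays on the control side, the difference was -1.46 (limma, adjusted p = 0.0014).

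CDKN1A, which encodes p21, was dim on these arrays. Its levels were -2.95 and -3.06 in shControl, -2.43 and -2.56 in shNontarget, -3.70 and -3.68 in shBEX2-1, and -3.20 and -3.39 in shBEX2-2. The groups did not overlap, and shBEX2-2 lay 0.14 below the lowest control array. The log2 difference was -0.74 (SE 0.21, 95% interval -1.21 to -0.28, limma, adjusted p = 0.0454). This call was lost under 15 of 22 alternative settings, and leaving out any array other than shNontarget replicate 1 gave adjusted p-values between 0.0579 and 0.121. With normexp background correction the difference was -0.22 (adjusted p = 0.264).

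CDKN1B was the steadiest of the 8 genes. Its levels were 1.12 and 1.11 in shControl, 1.42 and 1.29 in shNontarget, 1.15 and 1.22 in shBEX2-1, and 1.23 and 1.08 in shBEX2-2. The groups overlapped, and the log2 difference was -0.07 with a 95% interval from -0.33 to 0.20 (limma, adjusted p = 0.76). This probe was spotted 10 times, and the SD of its spots within an array was at most 0.10. The coding probe shown above gave 0.26 (adjusted p = 0.286), so the direction of this small difference depends on the probe.

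The INK4 genes did not move as a group. CDKN2D and CDKN2C were higher in BEX2-knockdown cells, while CDKN2A and CDKN2B, which lie side by side on chromosome 9, had differences below 0 that did not pass the test. CDKN2D had levels of 0.43 and 0.23 in shControl, 0.98 and 0.29 in shNontarget, 1.91 and 1.81 in shBEX2-1, and 2.49 and 2.15 in shBEX2-2. The lowest BEX2-knockdown array was 0.83 above the highest control array. The log2 difference of 1.61 was the largest among the 8 genes (SE 0.21, 95% interval 1.14 to 2.08, 3.05-fold, limma, adjusted p = 0.00235). As for CDKN1C, the call was kept under 21 of 22 settings and lost with shNontarget as the only control (1.46, adjusted p = 0.0554).

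CDKN2C had levels of -0.57 and -0.60 in shControl, 0.20 and -0.72 in shNontarget, 0.27 and 0.39 in shBEX2-1, and 0.85 and 0.74 in shBEX2-2. The groups did not overlap, but shNontarget replicate 1 lay only 0.07 below the lowest BEX2-knockdown array. The log2 difference was 0.98 (SE 0.23, 95% interval 0.47 to 1.496, 1.98-fold, limma, adjusted p = 0.0227). The call was lost under 7 of 22 alternative settings. Leaving out either shControl array or either shBEX2-2 array gave adjusted p-values between 0.0718 and 0.079. With shNontarget as the only control the difference was 0.82 (limma, adjusted p = 0.214). It was also lost by the rank product and by the methods' t-test with Benjamini-Hochberg adjustment (adjusted p = 0.0633).

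CDKN2A, which gives rise to p16 and to ARF, was bright on every array. Its levels were 4.93 and 4.80 in shControl, 5.06 and 3.76 in shNontarget, 4.68 and 4.77 in shBEX2-1, and 4.26 and 4.19 in shBEX2-2. The lowest value of all was that of shNontarget replicate 2, and the groups overlapped. The log2 difference was -0.16 with a 95% interval from -0.82 to 0.49 (limma, adjusted p = 0.767). The dimmer probe, shown above, gave -0.40, and was lowest in shNontarget replicate 2 as well (1.98, against 2.99 in replicate 1). Neither probe was taken to separate p16 from ARF.

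CDKN2B, which encodes p15, spread widely among the controls. Its levels were -0.54 and -0.37 in shControl, -1.17 and 0.35 in shNontarget, -0.80 and -0.85 in shBEX2-1, and -1.78 and -1.90 in shBEX2-2. The shBEX2-2 arrays lay below all control arrays, whereas shBEX2-1 lay within their range. The log2 difference was -0.90 (SE 0.36, 95% interval -1.72 to -0.08), which did not pass after adjustment (limma, adjusted p = 0.144). CDKN2BAS, the RNA antisense to this locus (now CDKN2B-AS1), had a log2 difference of -0.14 (limma, adjusted p = 0.843). Its probe was dim, with intensities of 16.02 to 40.78, and was not well above background on shNontarget replicate 1. The difference from both control vectors was 0.24 in shBEX2-1 and -0.53 in shBEX2-2, so the value over both hairpins does not show that this RNA was unchanged.

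CDKN3 had levels of 0.82 and 0.66 in shControl, 2.44 and 0.91 in shNontarget, 2.27 and 2.36 in shBEX2-1, and 2.86 and 2.83 in shBEX2-2. Because of shNontarget replicate 1, which was above both shBEX2-1 arrays, the groups overlapped. The log2 difference was 1.37 (SE 0.37, 95% interval 0.54 to 2.21, 2.59-fold, limma, adjusted p = 0.0414), and the dimmer probe gave 1.37 as well. The call did not hold under 10 of 23 settings. Leaving out any array other than shNontarget replicate 1 gave adjusted p-values between 0.0624 and 0.122. Against shControl alone, on 6 arrays, the difference was 1.84 (SE 0.18, adjusted p = 0.000532), and against shNontarget alone it was 0.91 (SE 0.42, adjusted p = 0.313).

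**Figure D2:**
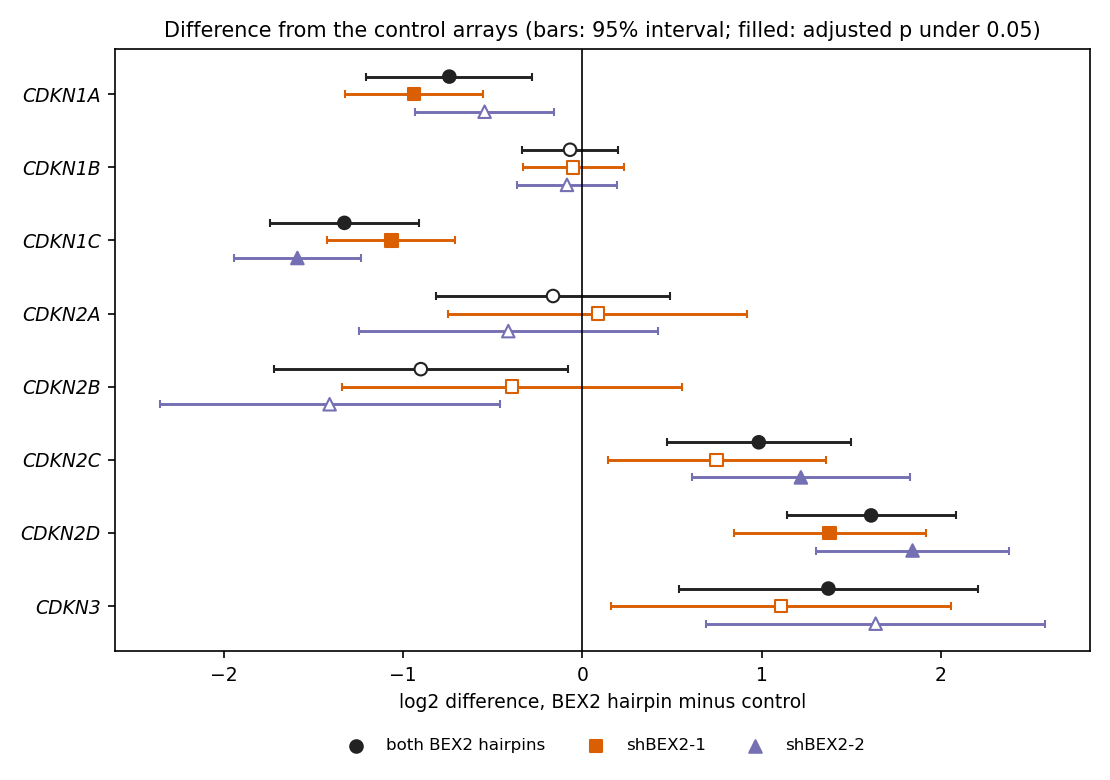
Log2 difference from the control arrays for each CDK inhibitor gene, over both BEX2 hairpins (circles) and for shBEX2-1 (squares) and shBEX2-2 (triangles) alone; bars are 95% intervals and filled symbols have an adjusted p under 0.05. CDKN1C and CDKN2D are filled for all 3 comparisons, and CDKN1B lies near 0 for each.

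The second question was whether each BEX2 hairpin gave these differences by itself, in a model with the 4 vectors. Against both control vectors, CDKN1C fell in shBEX2-1 (-1.06, SE 0.15, adjusted p = 0.0139) and in shBEX2-2 (-1.59, SE 0.15, adjusted p = 0.00348). CDKN2D rose in shBEX2-1 (1.38, SE 0.22, adjusted p = 0.0212) and in shBEX2-2 (1.84, SE 0.22, adjusted p = 0.0069). CDKN1A passed in shBEX2-1 (-0.94, adjusted p = 0.0252), and its difference in shBEX2-2 was -0.55 (adjusted p = 0.0939). CDKN2C passed in shBEX2-2 (1.22, adjusted p = 0.0335), and its difference in shBEX2-1 was 0.75 (adjusted p = 0.145). CDKN3 passed in neither (1.11, adjusted p = 0.162, and 1.64, adjusted p = 0.053). In each hairpin 3 of the 8 genes were called, where 7.00% of all genes were called for shBEX2-1 and 9.67% for shBEX2-2. These comparisons share their control arrays. Without 1 of the shControl arrays or 1 of the BEX2-knockdown arrays, 0 of the 8 genes were called for shBEX2-1, and without 1 of the shBEX2-2 arrays 0 were called for shBEX2-2. At most 0.870% of all genes were called in these fits.

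The test of the hairpins against each other called 0 of the 8 genes with all 8 arrays, as it called 0.00977% of all genes by limma. Before adjustment the p of CDKN1C was under 0.05. The differences were not small for all of them. CDKN2B was 1.02 higher in shBEX2-1 than in shBEX2-2 (95% interval -0.08 to 2.11), although the arrays of each hairpin agreed within 0.13. CDKN2A was 0.50 higher in shBEX2-1 (95% interval -0.46 to 1.46), and CDKN3 was 0.53 lower (95% interval -1.62 to 0.57). The interval was narrowest for CDKN1B, from -0.29 to 0.36.

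The shNontarget arrays enter these intervals through the shared spread, so the fit was repeated on the 6 other arrays, a choice made after the values had been seen. The hairpins then differed for 6 of the 8 genes, where 14.6% of all genes were called. CDKN2B was 1.02 higher in shBEX2-1 (SE 0.10, adjusted p = 0.00121), CDKN1C 0.52 higher (SE 0.09, adjusted p = 0.00954) and CDKN2A 0.50 higher (SE 0.08, adjusted p = 0.00802). CDKN2C was lower in shBEX2-1 by 0.47 (SE 0.08, adjusted p = 0.0105), CDKN2D by 0.46 (SE 0.12, adjusted p = 0.0451) and CDKN3 by 0.53 (SE 0.08, adjusted p = 0.006). For these 6 genes the level in shBEX2-2 was farther from shControl than that in shBEX2-1. CDKN1A had the opposite order (-0.68 in shBEX2-1 and -0.29 in shBEX2-2), with a difference between the hairpins that did not pass (adjusted p = 0.117).

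On the same 6 arrays the 8 genes were also set against shControl alone. For both hairpins together 4 of the 8 were called, against 33.4% of all genes, namely CDKN1C, CDKN2C, CDKN2D and CDKN3. For each hairpin by itself 6 were called, against 43.5% of all genes for shBEX2-1 and 44.1% for shBEX2-2. CDKN2B was lower than in shControl in both hairpins, by -0.37 in shBEX2-1 (SE 0.10, adjusted p = 0.0187) and by -1.39 in shBEX2-2 (SE 0.10, adjusted p = 3.75e-05). CDKN2A was called in shBEX2-2 (-0.64, SE 0.08, adjusted p = 0.000572) and not in shBEX2-1 (-0.14, SE 0.08, adjusted p = 0.191). CDKN1B was within 0.07 of shControl in both hairpins.

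**Figure D3:**
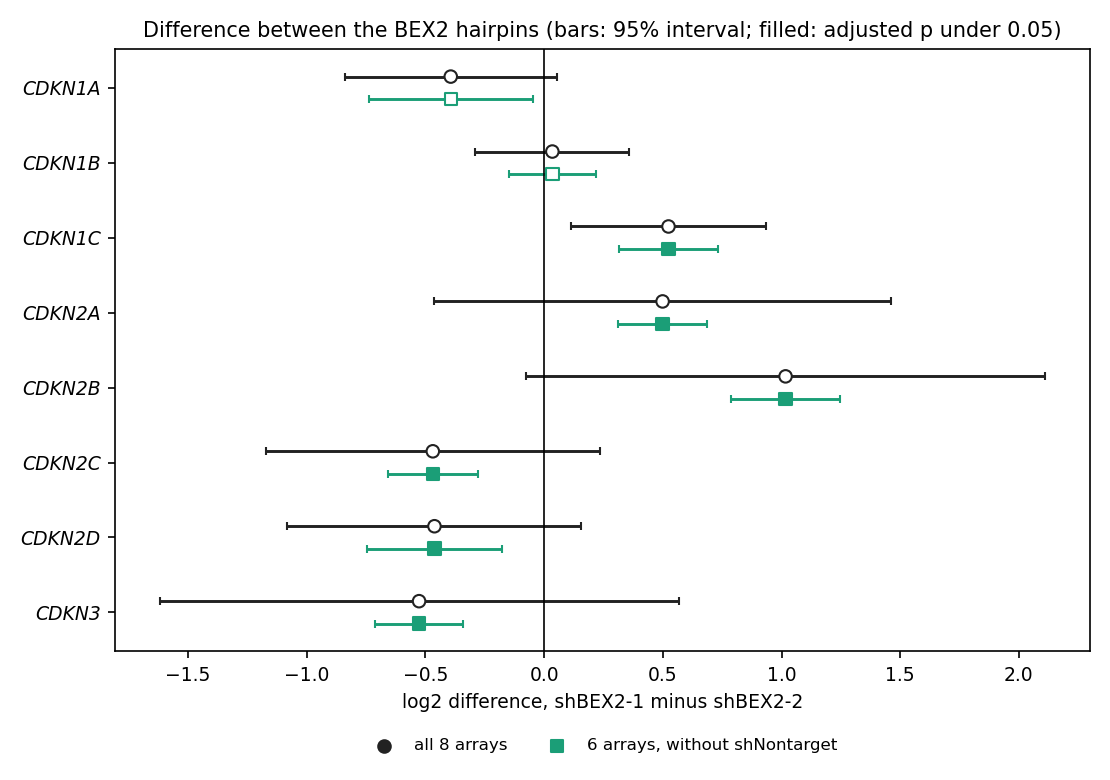
Log2 difference between the BEX2 hairpins (shBEX2-1 minus shBEX2-2) for each CDK inhibitor gene, from all 8 arrays (circles) and from the 6 arrays without shNontarget (squares); bars are 95% intervals and filled symbols have an adjusted p under 0.05. The differences are the same in both fits, and the intervals are narrower without the shNontarget arrays, so that 6 of 8 genes pass there and 0 with all arrays.

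The control vectors were compared with each other to give the background. The test called 0 of the 8 genes, and 0 of all 20464 (limma; 1 of the 8 and 1564 of all had an unadjusted p under 0.05). CDKN1A was higher in shNontarget by 0.51 (95% interval 0.06 to 0.96, adjusted p = 0.586), with arrays that agreed within 0.13 for each vector. CDKN3 was higher in shNontarget by 0.93 (95% interval -0.16 to 2.03, adjusted p = 0.733). The shNontarget arrays differed from each other by 1.52 for CDKN3, by 1.52 for CDKN2B and by 1.30 for CDKN2A, while the other vectors had gaps of at most 0.17 for these genes. Replicate 1 was the higher array for CDKN3 and CDKN2A and the lower for CDKN2B. With only shNontarget replicate 2 left out, 6 of the 8 genes were called between the control vectors, where 46.3% of all genes were called, and with only replicate 1 left out, 3 were, where 45.1% of all genes were. In these fits shNontarget is a single array that is assumed to vary like the arrays of the other vectors, so the calls depend on which of its discordant arrays is kept. CDKN2B, for example, had a difference of -0.72 with replicate 1 kept and 0.80 with replicate 2 kept.

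The genes that CDK inhibitors act on and answer to were counted in the same comparison of BEX2-knockdown with control arrays. Of 11 CDKs and cyclins tested, 8 rose and 0 fell (median log2 difference 1.23). The largest rises were those of CCNA2, the cyclin of S phase and G2 (1.96, SE 0.24, adjusted p = 0.00191), CCNE2 (1.80, SE 0.13, adjusted p = 0.000619), CDK2 (1.52, SE 0.13, adjusted p = 7e-04) and CCNE1 (1.51, SE 0.14, adjusted p = 0.000901). CDK4, the INK4 target, had a difference of -0.15 (adjusted p = 0.678), CDK6 had 0.39 (adjusted p = 0.175) and CCND1 had 0.01 (adjusted p = 0.977). CCND3, like CCND1 a gene for a cyclin D, was called higher (1.19, SE 0.20, limma, adjusted p = 0.00598). Of 11 pocket proteins and E2F factors, 5 rose and 1 fell (median 0.32). These were led by E2F2 (2.34, SE 0.35, adjusted p = 0.00415), E2F1 (2.24, SE 0.24, adjusted p = 0.00126), E2F8 (1.75, SE 0.30, adjusted p = 0.00687) and RBL1, which encodes p107 (1.62, SE 0.14, adjusted p = 7e-04). RB1 rose by 0.70 (adjusted p = 0.016), and E2F5 was the 1 that fell (-0.60, adjusted p = 0.017). For comparison, 6.68% of all genes were called higher, 17.2% against shControl alone and 0.948% against shNontarget alone. Both counts were kept or rose by 1 against shControl alone (8 and 6), and fell to 4 and 2 against shNontarget alone.

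In the same comparison 6.68% of all genes were called higher and 6.26% lower. Of 10 genes for the ubiquitin ligases and cofactors that act on p21, p27 or p57 protein, 5 rose and 0 fell (median 0.61). These were DTL, the CRL4 subunit that recognises p21 on chromatin-bound PCNA (1.95, SE 0.12, adjusted p = 0.000619), PCNA (1.59, SE 0.22, adjusted p = 0.00289), CDC20 (1.62, SE 0.26, adjusted p = 0.00495), SKP2, which recognises p27 (1.59, SE 0.17, adjusted p = 0.00126), and its partner CKS1B (1.02, SE 0.24, adjusted p = 0.0257). The scaffold genes CUL1, CUL4A and CUL4B and the adaptor DDB1 had differences between -0.28 and 0.20 and did not pass. Against shNontarget alone 2 of the 10 rose, where 0.948% of all genes were called higher.

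Of 19 regulators known to act on CDK inhibitor genes, mostly transcription and chromatin factors, 2 rose and 2 fell (median -0.20), where 6.68% of all genes were called higher and 6.26% lower, so that the counts were near those shares. ID1, whose protein blocks E-protein activators, rose by 1.86 (SE 0.25, adjusted p = 0.00289), and EZH2, the Polycomb methyltransferase, by 1.04 (SE 0.24, adjusted p = 0.0211). ETS2 had a difference of -0.84 (SE 0.16, adjusted p = 0.0111) and MYC of -0.55 (SE 0.12, adjusted p = 0.0171). The number that fell depended on the controls, with 7 against shControl alone, where 16.2% of all genes were called lower, and 0 against shNontarget alone, where 0.713% were. Without either shControl array or either shBEX2-2 array, EZH2 had adjusted p-values between 0.0683 and 0.0736. MYC had adjusted p-values between 0.0522 and 0.0612 without these arrays or without shBEX2-1 replicate 1. The number that fell was 1 without either shControl array, either shBEX2-2 array or shBEX2-1 replicate 1, where 2.88% to 3.54% of all genes were called lower. It was 4 without shNontarget replicate 1 and 5 without shNontarget replicate 2, where 11.1% and 10.5% were.

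**Figure D4:**
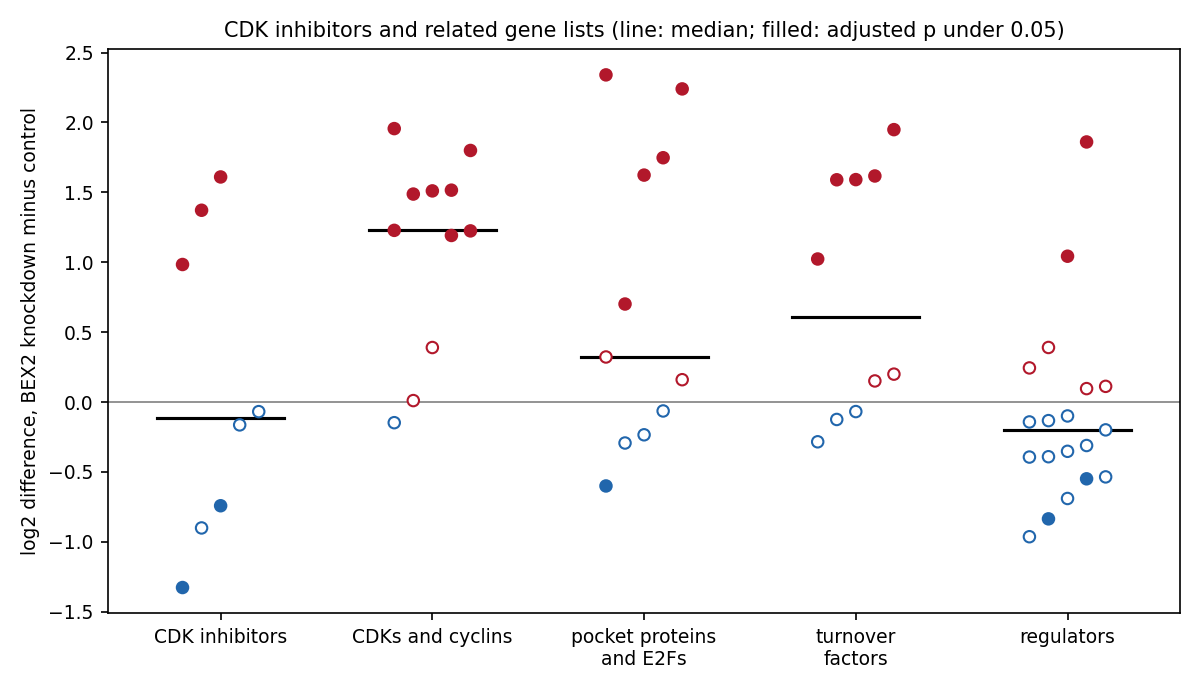
Log2 difference between BEX2-knockdown and control arrays for the CDK inhibitor genes and for 4 lists of related genes; each circle is a gene, lines are medians and filled circles have an adjusted p under 0.05. The CDK inhibitors lie on both sides of 0, while 8 of 11 CDKs and cyclins and 5 of 10 turnover factors are called higher and 0 of either lower. Of all genes tested, 6.68% are called higher and 6.26% lower.

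The genes nearest to each inhibitor were found by the root mean square difference of the centred levels over the 8 arrays, among 20448 genes with no missing value. This difference is small between any genes that vary little, as CDKN1B does, so its size cannot be compared between inhibitors. For CDKN2D these were CENPA, a centromere histone, MCM5, a subunit of the replicative helicase, and KIF20A, a mitotic kinesin (0.11, 0.12 and 0.13 on the log2 scale). For CDKN3 they were FAM64A, BIRC5, which encodes survivin, and CBR3 (0.13, 0.17 and 0.17). For CDKN2C they were C16orf61, ATL3 and LRRC8C (0.09, 0.10 and 0.10). The nearest genes to CDKN1C were ACPL2, CHMP1B and DHRS3 (0.11 each), and to CDKN1A NUDT6, PHACTR3 and PRKCE (0.10 each). The nearest gene to CDKN1B was TBCE (0.04), to CDKN2A NIPSNAP1 (0.07) and to CDKN2B DAD1L (0.13). All of these values rest on the same 8 arrays, so that they carry the spread of the shNontarget arrays too.

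Neighbours on the chromosome were examined after the values of the 8 genes had been seen, taking 3 protein-coding genes on either side in the order of the RefSeq table. Of 32 such neighbours tested, 2 were called higher and 2 lower, together 4 of 32, which is near the 12.9% called of all genes. DMRTA1, beside CDKN2B, was lower (-0.89, SE 0.14, adjusted p = 0.00444), and MTAP, on the other side of CDKN2A, had a difference of 0.30 (SE 0.11, adjusted p = 0.12). Beside CDKN1C, in an imprinted region, SLC22A18 was lower (-0.71, SE 0.14, adjusted p = 0.0114) and PHLDA2 had a difference of 0.43 (SE 0.19, adjusted p = 0.173). GPR19 (1.09, SE 0.29, adjusted p = 0.0413) and GPRC5A (0.69, SE 0.15, adjusted p = 0.016), near CDKN1B, were higher.

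Promoter letters were read for 7 of the 8 genes from RefSeq (GRCh38.p14, 250 bases before to 50 after the annotated start), to see whether the genes that rose together share a motif. The searches, on both strands, were for the CCAAT box (CCAAT), the cell cycle homology region CHR (TTTGAA) and E2F sites (TTTCCCGC, TTTGGCGC, TTTCGCGC or TTTGCCGC). CCAAT was found for CDKN3, CDKN2D and CDKN1B, and in 35.7% of 27305 promoters. The CHR letters were found for CDKN3 alone, 170 bases before the start and on the opposite strand, and in 15.4% of all promoters. The E2F letters were found in 0 of the 7, and in 3.33% of all. Only 1 annotated start was read for each gene, for CDKN2A that at chr9:21995275-21995574, so matches at other starts of a gene would be missed. The promoters of CDKN3 (chr14:54396757-54397056, plus strand) and CDKN2D (chr19:10568930-10569229, minus strand), which have matches among the genes that rose, are shown with the CCAAT and CHR letters, read on either strand, in capitals. CDKN2C, which also rose, had no match in this window, and CDKN1B, which did not pass the test, had CCAAT matches. CCAAT in 3 of the 7 genes and CHR in 1 of the 7 are near the shares of all promoters. The matches thus do not set apart the genes that rose.
CDKN3: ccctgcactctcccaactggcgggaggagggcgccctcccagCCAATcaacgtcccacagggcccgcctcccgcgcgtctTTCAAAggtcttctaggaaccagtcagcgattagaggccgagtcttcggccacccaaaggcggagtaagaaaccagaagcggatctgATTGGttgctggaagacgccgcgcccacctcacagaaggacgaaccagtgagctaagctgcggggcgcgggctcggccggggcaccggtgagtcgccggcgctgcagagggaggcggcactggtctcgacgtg
CDKN2D: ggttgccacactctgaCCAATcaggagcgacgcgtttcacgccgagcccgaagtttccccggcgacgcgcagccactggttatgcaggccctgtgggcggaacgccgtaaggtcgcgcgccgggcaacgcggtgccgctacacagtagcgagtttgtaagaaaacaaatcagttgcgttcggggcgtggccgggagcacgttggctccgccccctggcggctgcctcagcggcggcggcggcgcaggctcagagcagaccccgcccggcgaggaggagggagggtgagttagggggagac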

How the data were processed

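Total RNA of HuCCT1 cells was labelled with Cy3 and hybridised by the authors to single-colour Agilent arrays of 1 slide with 1 scan, read per the labels with Agilent Feature Extraction 10.7.3.1. In the deposited processed intensity of each spot, background was subtracted and a trend within the array removed, low values were replaced by a surrogate (19.9% to 25.9% of spots), and arrays were not scaled to each other. The deposited series table differed from the scanner files by at most 0.497%. Here control spots were left out, 3 to 15 non-uniform outliers per array were set to missing, log2 values were centred on the 75th percentile of each array (441 to 838 in intensity), spots of a probe were averaged, and a probe was kept if at least 0.5 of its spots were well above background on at least 4 arrays. The brightest probe by the mean of the 8 arrays stood for a gene. The number of arrays limits the precision.

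BEX2-knockdown and control arrays (4 and 4) were compared with limma 3.58.1 in R 4.3.3 (lmFit and eBayes with trend), and single vectors in a model of 4 vectors. P-values were adjusted by Benjamini-Hochberg over all 20464 genes, with a threshold of 0.05, and the fit was tested on simulated data. The members and lists were chosen with earlier results of these data known. All 8 members are named, with BEX2, and up to 4 called genes of each list by size of change. RB1, E2F5, CKS1B, the scaffold genes, CDK4, CDK6, CCND1, CCND3, KRT8, CD68 and the chromosomal neighbours were added after their values were seen. Some genes and lists are not reported here. Alternatives covered normalisation, normexp (offset 50), the series table, the filter, probes, blocks, leaving out each array, either control vector alone, the methods' t-test and the rank product of the study. Figures and motif searches used Python 3.11.15.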

Additional observations from a re-analysis of the deposited data

Results flagged for a closer look

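For 2 genes a control array lay far from the other 3 control arrays, by Dixon's ratio of the gap to the whole range, above its 95% critical value for 4 arrays. The ratio was 0.844 for CDKN2C and 0.859 for CDKN3, and in both the array was shNontarget replicate 1, which lay towards the BEX2-knockdown arrays. Of 18 groups of 4 arrays tested, chance would flag about 1 in 20. Without shNontarget replicate 1 6 of the 8 genes were called between BEX2-knockdown and control cells, compared with 5 on all arrays, while the share of all genes called was 23.1%, compared with 12.9%.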

How the results depend on the processing

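For the 8 genes in 5 comparisons there were 727 values under alternative settings. Of these, 587 kept their direction and their side of the threshold, 67 kept the direction and lost the call, 48 kept the direction and gained a call, and 25 changed sign. The number of the 8 genes called for BEX2 knockdown against control (5) was 3 without the filter on dim probes, 0 with shNontarget as the only control, 2 by the methods' t-test with Benjamini-Hochberg adjustment, 3 by the rank product, and 2 to 6 when each array was left out in turn. Left out in turn, the number was 0 to 7 for shBEX2-1, 0 to 7 for shBEX2-2, 0 to 6 between the hairpins and 0 to 6 between the control vectors, and the high numbers came without either shNontarget array, where 51.5% to 54.5% of all genes were called for a hairpin, 14.4% and 14.7% between the hairpins, and 45.1% and 46.3% between the control vectors. Without both shNontarget arrays, a setting added after the data were seen, 6 genes were called for shBEX2-1, 6 for shBEX2-2 and 6 between the hairpins. Of all genes, 2648 were called for BEX2 knockdown, 6842 against shControl alone, 340 against shNontarget alone and 863 by the rank product. The methods' t-test called 5417 before adjustment and 2168 with Benjamini-Hochberg adjustment. Without the filter on dim probes, which changes the number of genes tested, 2104 were called. When each array was left out, 1243 to 4728 were called. The calls of CCNA2, CCNE1, CCNE2, CDK2, DTL, E2F1, RBL1 and SKP2 held under all 22 settings run.

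Every change of sign was in a difference that did not pass the test on all arrays. CDKN1B changed sign with the mean of its probes (0.093 for BEX2 knockdown, 0.17 for shBEX2-1, 0.020 for shBEX2-2), with its dimmer probe (0.26, 0.38 and 0.13), against shControl alone (0.053, 0.070 and 0.035, the last 2 also without both shNontarget arrays), and between the hairpins when arrays were left out (-0.041 to 0.11). CDKN2A changed sign against shNontarget alone (0.065), and in shBEX2-1 with quantile normalisation (-0.016), the mean of its probes (-0.036), the other probe (-0.16), shControl alone or without both shNontarget arrays (-0.14), and when arrays were left out (-0.24 to 0.41). CDKN1A changed sign between the hairpins with normexp (0.040). Between the control vectors, leaving out arrays gave -1.10 to 0.19 for CDKN2A, -0.72 to 0.80 for CDKN2B, -0.13 to 0.79 for CDKN2C and -0.035 to 0.65 for CDKN2D. The cause was not tested.

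The deposited names of the arrays carry a day mark that coincides with the replicate number, and no source says what was done on that day. The numbers were not taken to pair the arrays, since the labels do not say that they mark a shared culture or day. Across genes, the replicate differences of shNontarget and shBEX2-1 correlated with r = -0.0628. For all other pairs of vectors the correlation was positive (r = 0.113 to 0.259), and what these arrays share was not tested. With the replicate number as a block 4 of the 8 genes were called for BEX2 knockdown, where 2456 of all 20464 genes were. CDKN1A was lost (limma, adjusted p = 0.0598). In this fit 3 of the 8 were called for each hairpin, and 0 between the hairpins and between the control vectors. For these comparisons the number of all genes called is not given here.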
